A study of Homo sapiens with 4 samples.

Results

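Ribosome assembly in the nucleolus needs a large number of proteins besides the ribosome's own, and the genes for many of them are classical targets of the transcription factor MYC. RNA polymerase I makes the long ribosomal RNA precursor, small nucleolar RNPs (snoRNPs) guide its methylation (box C/D) and pseudouridylation (box H/ACA), and assembly factors then fold, cut and export the precursors of the small and large subunits. Growing tumour cells generally keep this programme high. The genes described here are MYC and 42 genes of this programme, chosen by name from a list: 3 box C/D and 4 box H/ACA snoRNP proteins, 6 multifunctional nucleolar proteins, 11 small subunit and 15 large subunit assembly factors, and 3 RNA polymerase I subunits. All 43 were found among the 40205 rows of the table, and all 43 were among the 16098 genes that reached 1 RPKM (reads scaled to gene length and to library size) in at least 1 library.

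The values came from poly(A) RNA sequencing of U251 and U87MG, established human glioblastoma cell lines. In each line an SRSF1 knockdown (KD) library, from cells with a lentiviral hairpin against SRSF1, was set against a control library, from cells with a lentiviral negative-control hairpin that the labels call WT. All 4 cultures were selected with puromycin and kept as stable lines. SRSF1 is a serine/arginine-rich splicing factor. Each line and arm gave 1 library, so no ratio within a line can be checked against a replicate, and the only repeat of the knockdown is the second line. In bulk RNA a change in every cell and a change in a share of the cells cannot be told apart.

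SRSF1 itself was lower in both knockdown libraries, at 15.8 RPKM in U251 KD against 109 in the U251 control, and at 14.6 in U87MG KD against 88.3 in the U87MG control, although 0.60 of the 31-base words of its transcript are found in other annotated genes, which leaves its exact level uncertain. The libraries held 25099799 to 27953878 reads, and each of the 43 genes rested on 365 to 91494 reads per library. Of the astroglial and glioma markers, VIM and CD44 stood above 100 RPKM in all 4 libraries, GFAP was at most 1.47 RPKM, and S100B was at or near 0. SOX2 was at 49.3 and 47.9 RPKM in U251 but at 0.0460 and 0.121 RPKM in U87MG (KD and control). NES was at 83.7 and 61.1 RPKM in U251 but at 1.29 and 1.79 in U87MG. OLIG2 went the other way, at 0.0263 and 0.0146 RPKM in U251 and at 2.46 and 0.936 in U87MG. Of the neuronal markers, SYT1 was at 3.21 to 6.76 RPKM, SNAP25 at 1.22 to 1.92 and RBFOX3 at 0. The endothelial markers did not exceed 0.405 RPKM. Of the immune markers, PTPRC and AIF1 did not exceed 0.0516 RPKM, while CD68, a lysosomal protein used as a macrophage marker, was at 10.7 RPKM in U251 KD against 8.52 in the U251 control, and at 111 in U87MG KD against 62.4 in the U87MG control. Its part in the results was not tested.

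As a group, the 43 genes stood slightly higher in the knockdown than in the control in U251 and slightly lower in U87MG. The median log2 ratio of (KD RPKM + 1) over (control RPKM + 1) was 0.21 in U251 and -0.27 in U87MG, against 0.00 and -0.05 over all genes tested. In U251, 34 of the 43 genes lay above their control, where 48.4% of all genes did. In U87MG, 33 lay below their control, where 55.5% of all genes did. The summed level of the 43 genes was 4264 RPKM in U251 KD against 3708 in the U251 control, and 3407 in U87MG KD against 4081 in the U87MG control. The abundant NCL and NPM1 weigh heavily in these sums, with 1205 and 647 RPKM in U251 KD. The median level was 43.1 RPKM in U251 KD against 35.8 in the U251 control, and 29.2 in U87MG KD against 36.0 in the U87MG control.

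Most of these shifts were small. At least 1.5-fold higher in U251 KD were 3 of the 43 genes (5.01% of all genes), and at least 1.5-fold lower were 2 (7.73% of all genes). In U87MG KD none was at least 1.5-fold higher (7.68% of all genes) and 6 were at least 1.5-fold lower (11.5% of all genes). The members past 1.5-fold were thus about as frequent as in all genes, or fewer, and most of the set shifted by less.

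The directions of the lines were opposite for many of the genes but not for all of them. Above control in U251 and below control in U87MG were 25 of 43 genes, a pattern shown by 18.5% of all genes. The reverse pattern held for 1 gene, NOP10 (13.2% of all genes). Below control in both lines were 8 genes (36.5% of all genes), and above control in both were 9 (29.3% of all genes). The genes were put forward with this contrast between the lines already known, so these counts describe the set and test nothing.

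**Figure D1:**
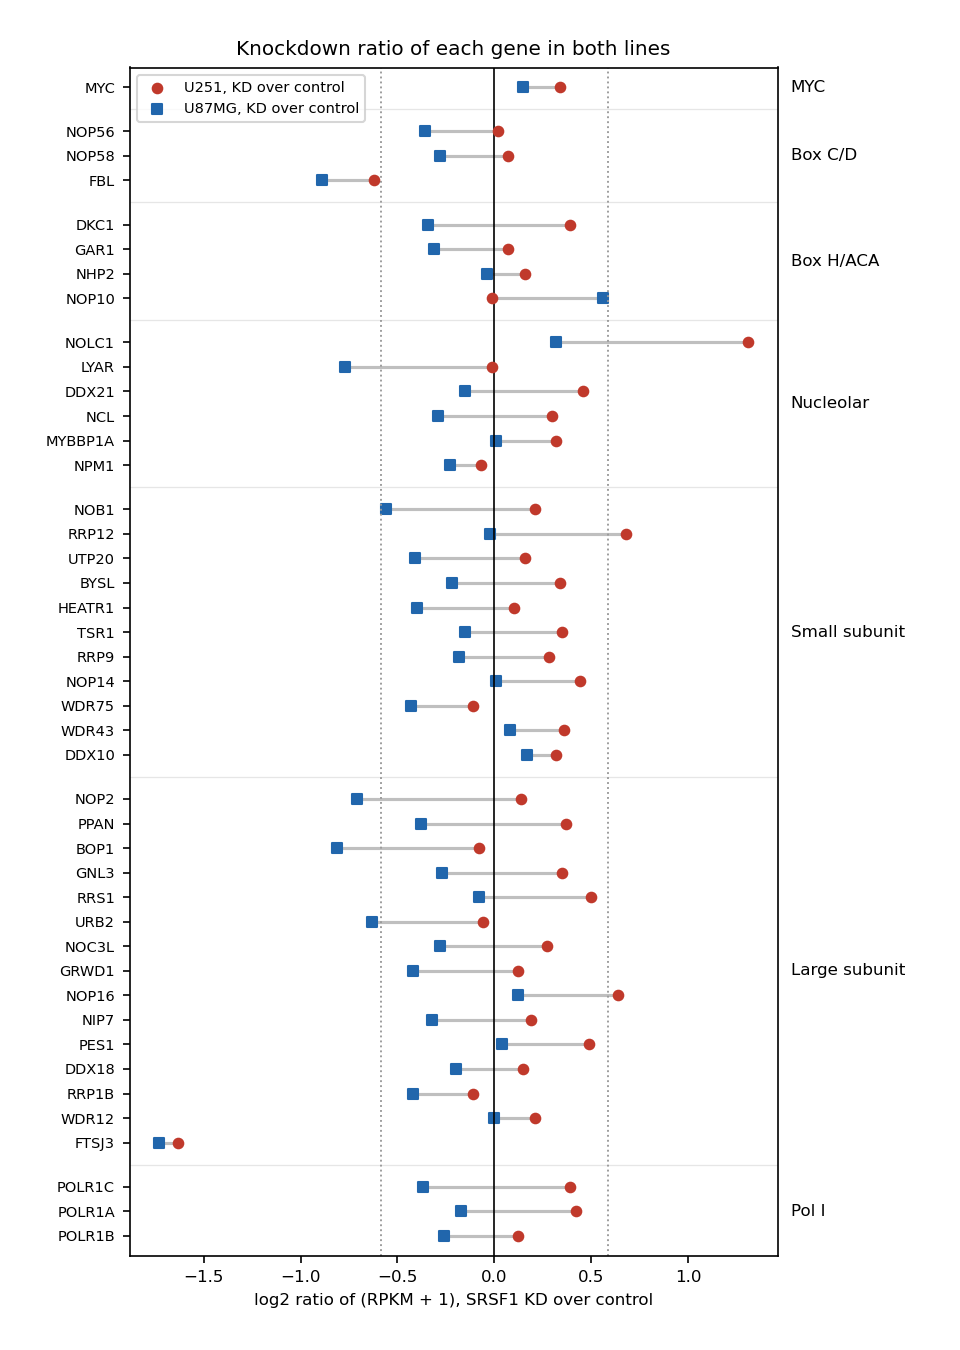
Log2 ratio of (RPKM + 1), SRSF1 KD over control, for each of the 43 genes in U251 (red circles) and U87MG (blue squares), grouped by class and ordered by the difference between the lines; each point is 1 library against 1 library, and dotted lines mark 1.5-fold. The red circle lies to the right of the blue square for 42 genes, NOP10 is the exception, and FTSJ3 lies at -1.63 in U251 and -1.73 in U87MG.

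The feature shared by nearly all of the genes was the order of the lines. The ratio was higher in U251 than in U87MG for 42 of 43 genes (57.1% of all genes), with a median difference of 0.50 log2 units against 0.07 over all genes. The middle 50% of the differences ran from 0.32 to 0.60 for the 43 genes and from -0.20 to 0.30 for all genes. At least 0.5 log2 units higher in U251 were 23 genes (11.7% of all genes), and none was 1 unit higher (1.88% of all genes). Among the 7923 genes that reached 10 RPKM in a library, a comparison added after the data were seen, 62.8% had the higher ratio in U251 and 12.6% were at least 0.5 log2 units higher, against 40 and 22 of the 41 genes of the set at that level. The difference between the lines could not be tested, since with 1 library per line and arm it has no residual degree of freedom.

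**Figure D2:**
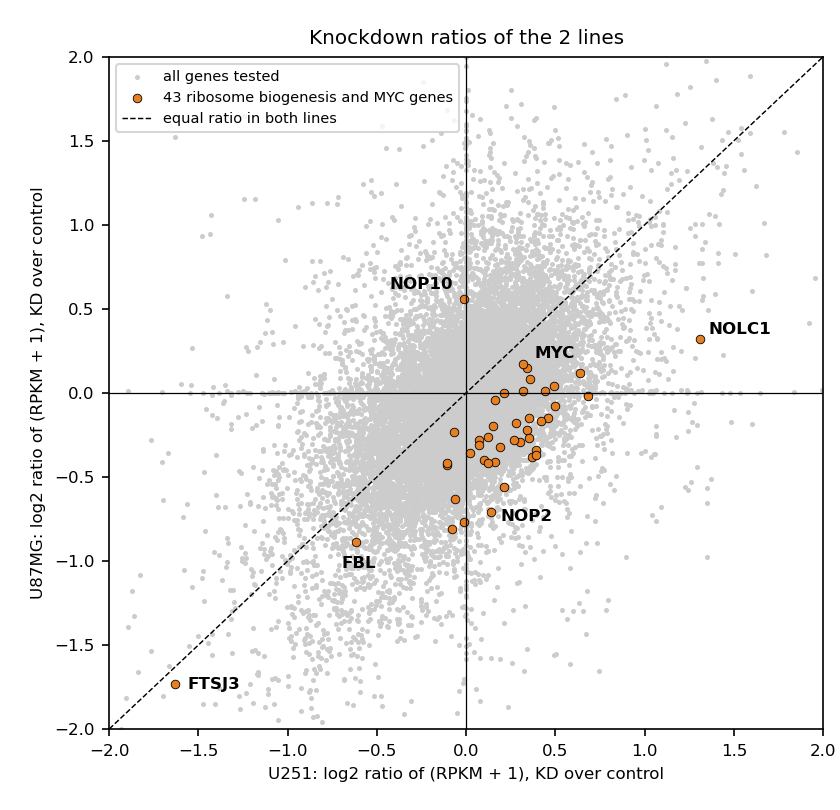
U251 log2 ratio (horizontal) against U87MG log2 ratio (vertical) of (RPKM + 1), KD over control, for all 16098 genes tested (grey) and the 43 genes (orange); 79 genes with a ratio beyond 2 log2 units in a line fall outside the axes. All orange points but NOP10 lie under the dashed line of equal ratios, 25 of them to the right of 0 and below 0.

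The ratios of the lines were nonetheless ordered alike among the genes. Across the 43 genes they correlated with Pearson r = 0.77 and Spearman rho = 0.65, and without FTSJ3, the lowest gene in both lines, with r = 0.61 and rho = 0.62 (n = 42 genes). Genes measured in the same libraries are not independent, so this is a description; over all genes r was 0.48. The difference between the lines did not follow expression level among the 43 genes (r = -0.06 with the mean log2 level).

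MYC (Entrez 4609), the transcription factor, did not share the opposite directions of the lines. It stood at 43.1 RPKM in U251 KD against 33.9 in the U251 control, and at 37.6 RPKM in U87MG KD against 33.8 in the U87MG control. Both knockdown libraries were the higher of their pair, with log2 ratios of 0.34 in U251 and 0.15 in U87MG. Counted in reads and scaled to depth, the KD to control ratio was 1.27 in U251 (95% Clopper-Pearson interval 1.20 to 1.35) and 1.11 in U87MG (1.05 to 1.18). Such intervals cover counting error only. Across the lines limma gave 0.24 ± 0.16 (SE, 2 libraries per arm, adjusted p = 0.437), so MYC was not called. This SE draws on the variance shared across all genes and is not the spread of MYC alone. The MYC levels of the control libraries were near equal in the lines.

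MYC and its partner MAX bind the palindrome CACGTG, the canonical E-box, so the promoters of the set were searched for these letters, which read the same on both strands. RefSeq promoter windows (GRCh38.p14, 250 bases before to 50 after the gene start) were matched for 34 of the 43 genes, and 15 of the 34 (44.1%) held at least 1 E-box. Among tested genes with a window the share was 12.6% of 9242. Counted by window, 36.6% of the 41 windows of the set held the motif, against 7.26% of all 35116 windows. The list was put together as ribosome biogenesis and MYC target genes. A higher share can follow from that choice, so these shares test nothing. A match is a description of the letters and no evidence of binding. The stretches below show it in a gene with a large difference between the lines (LYAR, 0.76), in 4 with differences from 0.46 to 0.62 (GNL3, DDX21, UTP20 and RRP9), in the fibrillarin gene, which was lower in both knockdowns, and in the exception NOP10. Capitals mark the E-box, and each stretch is written 5′ to 3′ on the gene's own strand.

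LYAR, chr4:4290068-4290097, reverse strand: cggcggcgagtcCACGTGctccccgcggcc
GNL3, chr3:52686026-52686055, forward strand: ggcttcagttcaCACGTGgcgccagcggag
DDX21, chr10:68956604-68956633, forward strand: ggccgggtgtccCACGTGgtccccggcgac
UTP20, chr12:101280083-101280112, forward strand: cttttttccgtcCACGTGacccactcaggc
RRP9, chr3:51941892-51941921, reverse strand: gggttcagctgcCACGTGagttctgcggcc
FBL, chr19:39846356-39846385, reverse strand: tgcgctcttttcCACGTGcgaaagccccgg
NOP10, chr15:34343130-34343159, reverse strand: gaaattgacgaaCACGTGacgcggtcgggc

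Genes of the set with and without an E-box had similar median differences between the lines. The median difference was 0.46 log2 units for the 15 genes with the motif and 0.50 for the others with a window. Over all tested genes it was 0.04 with the motif and 0.07 without.

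The 3 box C/D proteins, the core of the methylation guide particles, differed among themselves. FBL (Entrez 2091), fibrillarin, the methyltransferase and a gene with an E-box, was at 90.6 RPKM in U251 KD against 140 in the U251 control, and at 80.0 RPKM in U87MG KD against 149 in the U87MG control. It was low in both knockdown libraries, with log2 ratios of -0.62 and -0.89 in U251 and U87MG. Across the lines FBL fell (limma -0.76 ± 0.16, SE, adjusted p = 0.0480), but the call was lost under trimmed-mean scaling (adjusted p = 0.0944), and over the alternatives its adjusted p ran from 0.0197 to 1. NOP56, a scaffold of the same particle, was at 157 RPKM in U251 KD against 155 in the U251 control, and at 97.0 in U87MG KD against 125 in the U87MG control. NOP58, its paralog, was at 173 RPKM in U251 KD against 164 in the U251 control, and at 148 in U87MG KD against 180 in the U87MG control. Both scaffolds differed little between arms in U251 and were lower in U87MG KD, with log2 ratios of -0.36 for NOP56 and -0.28 for NOP58. FBL was therefore lower relative to both partners in each knockdown.

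Among the 4 box H/ACA proteins, 3 had the higher ratio in U251 and NOP10 had the higher ratio in U87MG. DKC1, dyskerin, the pseudouridine synthase, was at 168 RPKM in U251 KD against 128 in the U251 control, and at 77.4 in U87MG KD against 98.3 in the U87MG control. The read ratio of DKC1 was 1.31 in U251 (1.28 to 1.35) and 0.787 in U87MG (0.759 to 0.817), a difference of 0.73 log2 units. GAR1, a further core protein, was at 47.1 RPKM in U251 KD against 44.7 in the U251 control, and at 22.7 in U87MG KD against 28.4 in the U87MG control. NHP2 was at 51.8 RPKM in U251 KD against 46.2 in the U251 control, and at 44.8 in U87MG KD against 45.9 in the U87MG control. GAR1 thus differed mainly in U87MG, while NHP2 was nearly level there, and as 0.60 of the 31-base words of its transcript are also found in other annotated genes, the value of NHP2 is uncertain.

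NOP10 (Entrez 55505), the smallest protein of the particle, was the exception of the set. It was at 31.9 RPKM in U251 KD against 32.1 in the U251 control, and at 69.9 in U87MG KD against 47.1 in the U87MG control. Its U87MG KD library was the highest of the 4, with a read ratio of 1.49 (1.35 to 1.64) against 0.994 (0.871 to 1.13) in U251. The difference between the lines was -0.57 log2 units, the only negative one among the 43 genes. Its promoter window too holds the E-box, at -170 and again at -11 bases relative to the gene start. The stretch written above is the one at -11.

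The 6 multifunctional nucleolar proteins included the gene with the largest difference. NOLC1 (Entrez 9221), a phosphoprotein also known as Nopp140 that binds both snoRNP classes, was at 105 RPKM in U251 KD against 41.7 in the U251 control, and at 78.5 in U87MG KD against 62.5 in the U87MG control. It was higher in both knockdown libraries, and the U251 control was the lowest of the 4. The read ratio was 2.51 in U251 (2.42 to 2.60) and 1.26 in U87MG (1.21 to 1.30), and the log2 ratios differed by 0.98. Across the lines limma gave 0.82 ± 0.24 (SE, adjusted p = 0.106), which missed the threshold.

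NCL, nucleolin, an abundant RNA-binding protein of the nucleolus, was at 1205 RPKM in U251 KD against 981 in the U251 control, and at 912 in U87MG KD against 1118 in the U87MG control. DDX21, an RNA helicase of rRNA transcription and processing, was at 142 RPKM in U251 KD against 103 in the U251 control, and at 84.4 in U87MG KD against 93.6 in the U87MG control. These were the 2 genes of the class above control in U251 and below control in U87MG, with log2 ratios of 0.30 and -0.29 for NCL and of 0.46 and -0.15 for DDX21 in U251 and U87MG. LYAR, a cell growth-regulating nucleolar protein, was at 115 RPKM in U251 KD against 116 in the U251 control, and at 93.5 in U87MG KD against 161 in the U87MG control. LYAR differed in U87MG alone by more than counting error, with a read ratio of 0.582 (0.561 to 0.604) there and 0.993 (0.958 to 1.03) in U251. MYBBP1A, a MYB-binding protein of the nucleolus, was at 41.2 RPKM in U251 KD against 32.8 in the U251 control, and at 14.5 in U87MG KD against 14.3 in the U87MG control. NPM1, nucleophosmin, a histone and ribosome chaperone, was at 647 RPKM in U251 KD against 678 in the U251 control, and at 730 in U87MG KD against 854 in the U87MG control. NPM1 was slightly lower in both knockdowns, and its value is uncertain, since 0.53 of its 31-base words are found in other annotated genes as well.

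**Figure D3:**
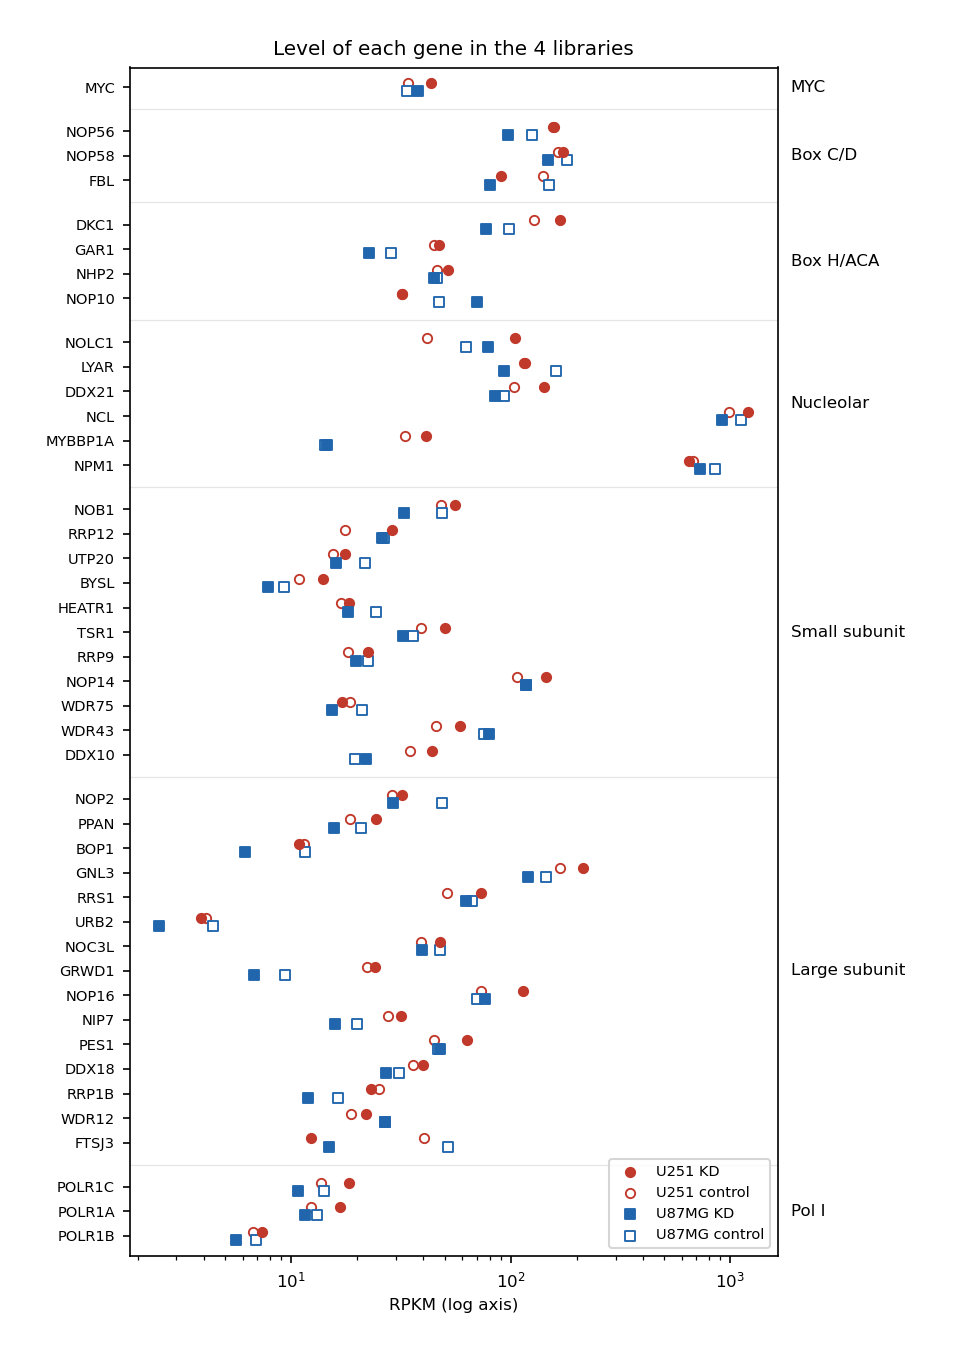
RPKM on a log axis for each of the 43 genes in U251 KD (filled red circles), U251 control (open red circles), U87MG KD (filled blue squares) and U87MG control (open blue squares), grouped by class; each point is 1 library. NCL lies highest, between 912 and 1205 RPKM, URB2 lowest, between 2.50 and 4.42 RPKM, and the filled and open symbols of NOLC1 in U251 and of FTSJ3 in both lines lie far apart.

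All 11 small subunit assembly factors had the higher ratio in U251, with class medians of 0.32 in U251 and -0.18 in U87MG. In U251, 10 of them lay above control, and in U87MG 8 lay below control. NOB1, the nuclease that makes the mature end of the small subunit RNA, was at 55.8 RPKM in U251 KD against 48.1 in the U251 control, and at 32.6 in U87MG KD against 48.5 in the U87MG control. The control libraries of NOB1 were near equal, and the knockdown libraries lay on either side of them, although 0.42 of its 31-base words are found in other annotated genes. RRP12, a factor of pre-ribosome export in yeast, was at 28.7 RPKM in U251 KD against 17.5 in the U251 control, and at 26.0 in U87MG KD against 26.4 in the U87MG control. RRP12 was past 1.5-fold in U251, with a read ratio of 1.64 (1.55 to 1.73), while its U87MG ratio of -0.02 turned to 0.09 under trimmed-mean and 0.03 under quantile scaling.

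UTP20, a large scaffold of the small subunit processome, was at 17.5 RPKM in U251 KD against 15.5 in the U251 control, and at 16.0 in U87MG KD against 21.7 in the U87MG control. BYSL, bystin, was at 14.0 RPKM in U251 KD against 10.9 in the U251 control, and at 7.84 in U87MG KD against 9.29 in the U87MG control. TSR1, a GTPase-like factor of late small subunit precursors, was at 49.9 RPKM in U251 KD against 39.0 in the U251 control, and at 32.2 in U87MG KD against 36.0 in the U87MG control. All of these had their highest U251 value in the knockdown and their highest U87MG value in the control. DDX10, an RNA helicase, was at 43.6 RPKM in U251 KD against 34.6 in the U251 control, and at 22.0 in U87MG KD against 19.5 in the U87MG control. DDX10 was the higher of the pair in both knockdowns and had the smallest difference between the lines in this class (0.16). The other members were NOP14, RRP9 and the early-acting WDR43, WDR75 and HEATR1, with differences from 0.29 for WDR43 to 0.50 for HEATR1.

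All 15 large subunit assembly factors had the higher ratio in U251, with class medians of 0.19 in U251 and -0.32 in U87MG. The 6 genes of the set that were at least 1.5-fold lower in U87MG KD were NOP2, BOP1, URB2 and FTSJ3 of this class, besides FBL and LYAR. NOP2, an RNA methyltransferase, was at 32.0 RPKM in U251 KD against 28.9 in the U251 control, and at 29.2 in U87MG KD against 48.4 in the U87MG control. Only the U87MG control of NOP2 stood apart, and the other 3 libraries lay close together. Of its 31-base words 0.84 are found in other annotated genes as well, so the value of NOP2 is uncertain. PPAN, whose yeast relative acts in large subunit assembly, was at 24.3 RPKM in U251 KD against 18.5 in the U251 control, and at 15.6 in U87MG KD against 20.7 in the U87MG control, but 0.87 of its words are also part of the read-through transcript PPAN-P2RY11.

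BOP1, PES1 and WDR12 form the PeBoW complex, which is needed for processing of large subunit RNA, and they were set side by side after their values were seen. BOP1 was at 10.8 RPKM in U251 KD against 11.4 in the U251 control, and at 6.15 in U87MG KD against 11.6 in the U87MG control. The U87MG KD library of BOP1 was the low one, with a read ratio of 0.531 (0.468 to 0.603). PES1 had log2 ratios of 0.49 in U251 and 0.04 in U87MG, and WDR12 of 0.21 and 0.00. In U87MG, where BOP1 had a log2 ratio of -0.81, its partners were thus near level between the arms.

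GNL3, nucleostemin, a nucleolar GTPase, was at 214 RPKM in U251 KD against 168 in the U251 control, and at 120 in U87MG KD against 144 in the U87MG control. RRS1, which in yeast helps to place the 5S particle in the large subunit, was at 73.0 RPKM in U251 KD against 51.2 in the U251 control, and at 62.6 in U87MG KD against 66.4 in the U87MG control. Both were highest in U251 KD, although the U87MG ratio of RRS1, -0.08, turned to 0.03 under trimmed-mean scaling. NOP16 was the third gene of the set past 1.5-fold in U251 KD, with a read ratio of 1.57 (1.48 to 1.66) there and 1.09 (1.02 to 1.16) in U87MG. The remaining factors, RRP1B, DDX18, GRWD1, NIP7, URB2 and NOC3L, had U251 ratios from -0.11 (RRP1B) to 0.27 (NOC3L) and U87MG ratios from -0.63 (URB2) to -0.20 (DDX18).

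FTSJ3 (Entrez 117246), an RNA methyltransferase of pre-rRNA processing, had the largest shift of the set in both lines. It was at 12.3 RPKM in U251 KD against 40.2 in the U251 control, and at 14.9 in U87MG KD against 51.8 in the U87MG control. Both knockdown libraries lay far below both controls, with read ratios of 0.307 (0.287 to 0.327) in U251 and 0.287 (0.270 to 0.305) in U87MG. Across the lines FTSJ3 fell (limma -1.68 ± 0.16, SE, adjusted p = 0.00867), while its ratios differed between the lines by only 0.11. Under trimmed-mean scaling its estimate was -1.62 ± 0.14 with an adjusted p of 0.0641, and over the alternatives the adjusted p ran from 0.00329 to 1.

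The 3 RNA polymerase I subunits were each higher in U251 KD and lower in U87MG KD than in their controls. POLR1A, the largest catalytic subunit, was at 16.7 RPKM in U251 KD against 12.3 in the U251 control, and at 11.5 in U87MG KD against 13.1 in the U87MG control. POLR1B, the second catalytic subunit, was at 7.36 RPKM in U251 KD against 6.69 in the U251 control, and at 5.58 in U87MG KD against 6.90 in the U87MG control. POLR1C, which RNA polymerase III shares, was at 18.3 RPKM in U251 KD against 13.7 in the U251 control, and at 10.7 in U87MG KD against 14.1 in the U87MG control. The differences between the lines were 0.59, 0.38 and 0.76 log2 units for POLR1A, POLR1B and POLR1C, with U87MG KD the lowest library for each.

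For the knockdown across both lines limma called few of the genes. Over all 16098 genes, with the cell line as a covariate, it called 2 of the 43 genes lower (2.61% of all genes), FBL and FTSJ3, and none higher (1.16% of all genes). At an unadjusted p under 0.05, 2 were lower (12.8% of all genes) and 1, NOLC1, was higher (8.29% of all genes), both below the background. The genes were put forward with the contrast between the lines known. Opposite ratios shrink the estimate across the lines and widen its error, so that choice can lower the counts. Its part in the low counts was not tested. For the other 40 genes the estimates ran between -0.45 (BOP1) and 0.38 (NOP16), with the adjusted p at 0.274 or above.

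Trimmed-mean scaling moved the U87MG values by more than those of U251, since its factors were 0.933 and 1.01 for U87MG KD and control, and 1.02 and 1.04 for U251 KD and control. This scaling (TMM) moved the median difference between the lines over all genes to -0.01 and that of the 43 genes to 0.41. Under it 42 of 43 still had the higher ratio in U251 (48.71% of all genes). Above control in U251 and below control in U87MG were 23 (14.50% of all genes). The U87MG median of the 43 genes was then -0.16 and the U251 median 0.23. Quantile normalization gave -0.24 and 0.19, with 41 genes higher in U251 (52.65% of all genes). Each class kept a positive U251 median and a negative U87MG median under both, except the box C/D proteins, whose U251 median turned to -0.11 under quantile normalization.

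**Figure D4:**
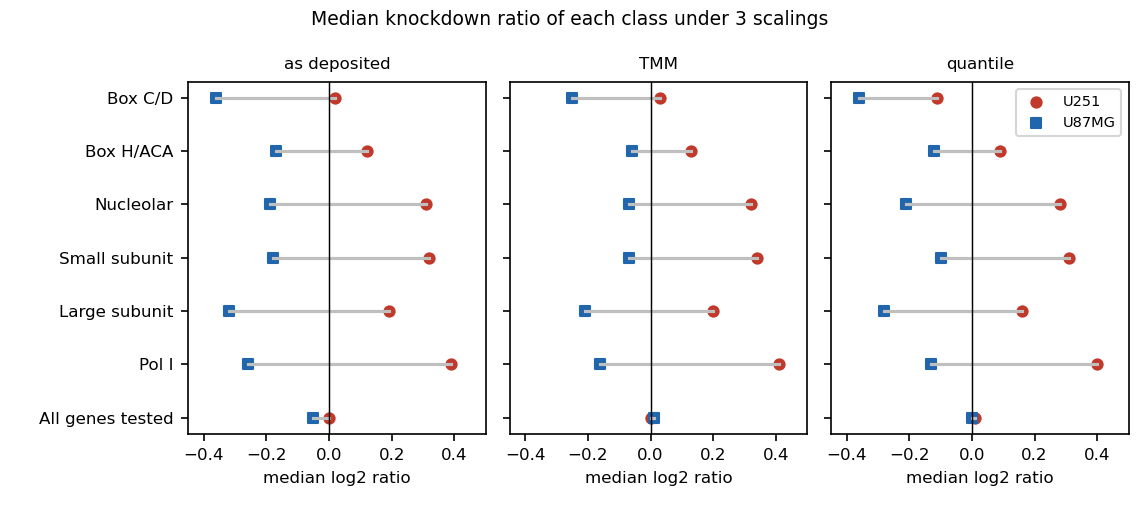
Median log2 ratio of (RPKM + 1), KD over control, of each class and of all genes tested, in U251 (red circles) and U87MG (blue squares), for the deposited values, trimmed-mean (TMM) scaling and quantile normalization. The U251 median lies to the right of the U87MG median in every class and scaling, and the median of all 16098 genes lies within 0.05 of 0 in each line.

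The levels of the lines themselves were compared in the same fit, as U87MG minus U251 with the arm as a covariate. By limma 2 of the 43 genes were higher in U87MG (21.6% of all genes) and 9 were lower in U87MG (27.0% of all genes). NOP10 (0.82 ± 0.19, SE, adjusted p = 0.00904) and WDR43 (0.58 ± 0.17, adjusted p = 0.0219) were the higher ones. GRWD1, a chaperone of a large subunit ribosomal protein, had the most negative estimate (-1.42 ± 0.19, adjusted p = 7.0e-04), followed by MYBBP1A (-1.29 ± 0.17, adjusted p = 7.0e-04), DDX10 (-0.88), GAR1 (-0.83), DKC1 (-0.75), RRP1B (-0.74), NIP7 (-0.70), GNL3 (-0.52) and NOP56 (-0.50). Both counts are below the share over all genes. Without the filter on low values limma called 0 of the 43 genes higher and 3 lower in U87MG, so the calls of NOP10 and WDR43 were lost there. The median U87MG minus U251 difference of the 43 genes was -0.40 in the knockdown libraries and 0.08 in the control libraries, so the set stood nearly level in the controls and lower in U87MG in the knockdowns.

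The other assembly genes of the pathway, from lists chosen with earlier results of these data known, had ratios that differed between the lines in the same direction, with a smaller median. Of 96 further genes for small subunit assembly, large subunit assembly and RNA polymerase I, 87 had the higher ratio in U251 (57.1% of all genes). Their median difference was 0.38, and 49 were above control in U251 and below control in U87MG (18.5% of all genes). None of the 96 was called by limma in either direction, and at an unadjusted p under 0.05, 1 was higher (8.29% of all genes) and 8 were lower (12.8% of all genes), again below the background. Small subunit factors (n = 40) had medians of 0.16 in U251 and -0.17 in U87MG, and DHX37, a helicase of the processome, was at 16.4 RPKM in U251 KD against 11.2 in the U251 control, and at 11.1 in U87MG KD against 14.8 in the U87MG control. PDCD11 (0.37 and -0.51) and WDR3 (0.54 and -0.31) had the next largest differences, while PWP2 (-0.49 and -0.91) and WDR36 (-0.63 and -0.51) had negative ratios in both lines.

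Large subunit factors (n = 44) had medians of 0.17 in U251 and -0.20 in U87MG, and NOC2L had log2 ratios of 0.43 and -0.36 there. RRP8 (0.06 and -0.68), MDN1, a giant ATPase of large subunit maturation (-0.09 and -0.82), WDR18 (-0.25 and -0.84) and NOL9 (-0.32 and -0.72) differed mainly in U87MG. Among 12 other RNA polymerase I subunits and factors, UBTF, the upstream binding factor of ribosomal DNA, was at 56.2 RPKM in U251 KD against 40.4 in the U251 control, and at 25.4 in U87MG KD against 30.5 in the U87MG control. POLR1E was at 42.8 RPKM in U251 KD against 59.0 in the U251 control, and at 9.37 in U87MG KD against 23.0 in the U87MG control. CD3EAP had log2 ratios of 0.01 and -0.75, and TAF1D of 0.67 and 0.15. The 11 specific subunits of RNA polymerase III, which makes the small ribosomal RNA and tRNAs, had a smaller median difference of 0.21, with POLR3K (0.33 and -0.31) and POLR3A (0.19 and -0.41) widest apart, and POLR3G (-0.09 and -0.56) and POLR3B (-0.17 and -0.52) lower in both.

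Genes tied to MYC outside ribosome assembly were listed as well. Of 13 partners, relatives and antagonists of MYC, 11 were measured, and their median difference was 0.00. MAX, the dimer partner of MYC, was at 21.6 RPKM in U251 KD against 18.4 in the U251 control, and at 33.0 in U87MG KD against 25.2 in the U87MG control. MXI1, a MAX-binding antagonist, had the widest difference, with log2 ratios of -0.04 in U251 and 0.54 in U87MG, next to MXD1 (0.01 and -0.40) and MNT (-0.12 and 0.27). MLXIP, a MAX-like interacting factor, fell across the lines (limma -0.83 ± 0.17, SE, adjusted p = 0.0436), with ratios of -0.94 and -0.72, and was not called under trimmed-mean scaling (adjusted p = 0.104).

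Of 23 widely used MYC targets outside ribosome assembly, 21 were measured, with medians of -0.03 in U251 and -0.35 in U87MG. Below control in both lines were 13 of them (36.5% of all genes). SRM, spermidine synthase, was at 25.9 RPKM in U251 KD against 52.3 in the U251 control, and at 34.6 in U87MG KD against 68.6 in the U87MG control. It fell across the lines (limma -0.98 ± 0.16, SE, adjusted p = 0.0247), and was not called under trimmed-mean scaling (adjusted p = 0.0786). ODC1, ornithine decarboxylase, the enzyme before it in polyamine synthesis, had ratios of -0.43 and -1.08. IMPDH2, of guanine nucleotide synthesis, was at 174 RPKM in U251 KD against 176 in the U251 control, and at 85.4 in U87MG KD against 166 in the U87MG control, and CAD, of pyrimidine synthesis, had ratios of -0.03 and -0.70. In U251, SRM and ODC1 were thus below control, while IMPDH2 and CAD were near level. Of the 21 measured targets, 8 lay above control in U251 (48.4% of all genes), and 4 of these were below control in U87MG (18.5% of all genes). The ratio was higher in U251 than in U87MG for 17 of the 21 (57.1% of all genes), with a median difference of 0.23.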

How the data were processed

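The authors deposited RPKM values per gene, already scaled to gene length and library size, for 4 libraries. The submitters' processing notes name Bowtie 0.12.2 and hg19. The sources used here do not give the counting program, the annotation or the use of strand, so reads of overlapping or antisense genes are not resolved. Groups came from the sample titles. Genes that reached an RPKM of 1 in any library were tested on log2(RPKM + 1), a scale that understates the change of low genes. limma 3.58.1 in R 4.3.3 fitted cell line and arm over all 16098 genes, with an intensity trend, two-sided, and Benjamini-Hochberg adjustment at 0.05. Each gene has 1 residual degree of freedom, which in this fit is the difference of its KD ratio between the lines. The p-values rest on that difference and on the variance shared across all genes (6.74 prior degrees of freedom). No replicate enters them, and the spread among these 4 libraries may be technical.

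Whole reads were recovered from RPKM as the smallest whole numbers that fit, with library totals from short genes of known length. Within 0.01 reads 99.8% of the genes above 0 came out whole, including all 43 described here. Clopper-Pearson intervals of 95% used these reads. Shared 31-base words were counted in GENCODE 29 transcripts. The 43 genes, their classes and the other lists were chosen with earlier results of these data known. Values in every library are given for MYC, for up to 5 genes per class with the largest difference between the lines and for the 1 with the smallest. Genes called by limma for the knockdown are named too, and other genes of the set by range, count or complex. Genes of other lists are the 3 with the largest difference and the 2 with the largest mean ratio. Alternatives were trimmed-mean (unweighted TMM) scaling, quantile normalization, a pseudocount of 0.1, no filter on low values, other folds, no covariate for the line and no intensity trend. A background of genes reaching 10 RPKM was added after the data were seen. The steps were tested on simulated data and run in Python 3.11.15 (pandas 2.3.3, numpy 2.4.6, scipy 1.17.1).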

Additional observations from a re-analysis of the deposited data

Results flagged for a closer look

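These results stood out because the knockdown library lay above its control in U251 and below its control in U87MG. No difference between the lines given here was tested, since each arm of a line has a single library. The pattern held for 25 of the 43 genes. By class, the median difference of the log2 ratio (U251 minus U87MG) was 0.60 for the multifunctional nucleolar proteins, 0.59 for the RNA polymerase I subunits, 0.54 for large subunit assembly, 0.50 for small subunit assembly, 0.35 for the box C/D proteins and 0.29 for the box H/ACA proteins. Among single genes that passed 1.5-fold in a line, NOP2 differed by 0.85, with its U87MG control high, and RRP12 by 0.71, with its U251 control low. RRP12 was near level in U87MG (-0.02), and this ratio turned to 0.09 under trimmed-mean and 0.03 under quantile scaling. The value of NOP2 is uncertain, since 0.84 of its 31-base words are found in other annotated genes. The U251 median of the box C/D proteins was 0.02, and it turned to -0.11 under quantile normalization.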

How the results depend on the processing

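With a fold of 2 in place of 1.5, 1 gene was higher and 1 lower in U251 KD (NOLC1 and FTSJ3), and 1 was lower in U87MG KD (FTSJ3). The shares of all genes at a fold of 2 were not computed, so these counts have no background to be set against. With a difference between the lines of 0.5 log2 units in place of 1, 23 genes passed. Trimmed-mean scaling put 1 gene 1.5-fold above control in U87MG KD, moved the U87MG median of the set to -0.16, and left limma with 0 of the 43 genes lower in the knockdown and 4 higher in U87MG than in U251. Without the filter on low values limma called 0 lower in the knockdown, and between the lines 0 higher and 3 lower in U87MG. Without a covariate for the cell line it called 0 lower, and without the intensity trend 1. The prior degrees of freedom of the variance shared across genes were 6.74 in the fit reported, and 4.15, 2.24 and 2.07 with trimmed-mean scaling, without the filter and without the covariate; the cause of the lost calls was not tested. Of 58 ratios of the named genes, 5 changed sign under trimmed-mean scaling, 3 under quantile normalization and 0 with a pseudocount of 0.1, all of them within 0.08 of 0 as reported. No pairing by replicate number exists with 1 library per line and arm, and the fit reported already compares knockdown with control within each line. Leaving out a library was not run.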
